A study of Mus musculus with 20 samples.

Results

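The 8 semaphorins of classes 4, 6 and 7 and 2 plexin B receptors were followed in bone marrow cells of mice after 5 Gy of total body irradiation. The 10 genes were Sema4a, Sema4b, Sema4c, Sema4d, Sema6a, Sema6b, Sema6d, Sema7a, Plxnb1 and Plxnb2. They were chosen with earlier results of these data known, so counts of them beside shares of all genes are a description only. They are 10 of the 18193 genes that the arrays measured with at least 1 probe set assigned to a single gene symbol, and they hold 21 of 34945 such probe sets. The arrays carry 16 genes of these classes and of the plexin B family in all, and the other 6 (Sema4f, Sema4g, Sema5a, Sema5b, Sema6c and Plxnb3) are described with the partner genes. All mice were adult C57/Bl6 animals of 8 to 10 weeks, and the cells were VE-cadherin+ cells of the marrow. The groups were non-irradiated mice and mice taken 6 hours, 24 hours or 14 days after 5 Gy, with 5 arrays in each. Each array is labelled as a biological replicate, with no word on whether it held 1 mouse or several, so the p-values measure the spread between these arrays. The labels give no hour or day of collection for the non-irradiated mice.

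Semaphorins are secreted or membrane-bound guidance proteins that share a sema domain, and plexins are their main receptors. The class 4 and 6 proteins span the membrane, while Sema7a is held to it by a lipid (GPI) anchor. Class 4 proteins bind mainly plexin B receptors, class 6 proteins bind plexin A receptors, and Sema7a binds plexin C1 and integrins with the alpha 1 and beta 1 chains. The cytoplasmic part of a plexin holds a GTPase-activating domain for small GTPases of the Ras family. Plexin B receptors also recruit guanine nucleotide exchange factors. In vessels the system is known for steering endothelial migration and sprouting, and in bone and marrow Sema4d is known for its action on osteoblasts and lymphocytes.

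At 6 hours Sema6a, Sema7a, Plxnb2, Sema4c and Sema6d were higher than in non-irradiated cells, by 3.42-fold, 2.59-fold, 2.41-fold, 2.04-fold and 1.42-fold. At 24 hours Plxnb2 (3.75-fold), Sema7a, Sema4c and Sema6a were still higher, and so was the brightest probe set of Sema6d, whose probe sets disagreed. Sema6b was lower at 24 hours in the deposited scale but not called in the other scalings. At day 14 Sema6a, Sema6b and Sema7a were lower than in non-irradiated cells in the deposited scale. The brightest probe set of Sema4b was higher then, while its second was not called. By their brightest probe sets in the deposited scale, Sema4a, Sema4d and Plxnb1 did not pass the test at any of the 3 times against non-irradiated cells. The second probe set of Plxnb1 was called lower at day 14 (-1.15, adjusted p 0.00607). The mean of probe sets was called lower at 6 hours for Sema4a (adjusted p 0.0158) and Plxnb1 (adjusted p 0.0492).

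The promoters of Sema7a and Plxnb2, on chromosomes 9 and 15, are shown because these genes were more than 2-fold higher at both 6 and 24 hours. Each sequence is the 250 bases before an annotated start, from RefSeq on GRCm38.p6, written 5′ to 3′ along the gene's strand, with each GC box (GGGCGG on either strand) in capitals. The Sema7a window is chr9:57939862-57940111 (+) and the Plxnb2 window is chr15:89180789-89181038 (-), the outer of its 2 annotated starts.
Sema7a: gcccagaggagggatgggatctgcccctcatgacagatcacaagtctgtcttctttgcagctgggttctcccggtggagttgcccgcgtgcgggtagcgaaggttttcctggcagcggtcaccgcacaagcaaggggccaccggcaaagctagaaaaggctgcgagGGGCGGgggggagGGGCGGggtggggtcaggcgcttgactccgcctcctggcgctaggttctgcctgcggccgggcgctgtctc
Plxnb2: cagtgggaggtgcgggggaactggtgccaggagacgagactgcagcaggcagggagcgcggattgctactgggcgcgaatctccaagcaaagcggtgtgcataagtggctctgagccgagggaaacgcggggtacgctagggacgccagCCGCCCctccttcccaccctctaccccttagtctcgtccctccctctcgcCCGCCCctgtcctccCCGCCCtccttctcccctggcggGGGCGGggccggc
The Sema7a window holds 2 GC boxes and the Plxnb2 window 4. Neither holds any other motif searched on both strands. These were the AP-1 motif TGANTCA, the E-box CACGTG, the ETS core CCGGAA, the TATA box TATAAA, the CCAAT box, the CRE core TGACG, the p53 half-site, the NF-kB site and the CArG box. Promoter windows were available for 9 of the 10 genes, 19 windows in all, and none for Sema6a is shown. A GC box was present in 15 of the 19 windows and in at least 1 window of each of the 9 genes, against 32.7% of 32851 windows of all genes. TATAAA was in 0 of the 19 windows, against 12.4% of all windows, and CCAAT in 4, against 33.8%. These matches describe letters in a fixed window only. GC content was 66.4% in the Sema7a window and 69.2% in the Plxnb2 window, with a median of 52.4% over all windows.

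The deposited values are linear signals, 1 per probe set and array, scaled so that the mean without the top and bottom 2% is 500 on every array. Tests used limma on log2(signal + 1) over all 20 arrays with Benjamini-Hochberg adjustment over the 18193 genes, each represented by its brightest probe set, and a gene was called at an adjusted p under 0.05. A change below is the difference of 2 group means of log2(signal + 1), with its standard error from this model and n = 5 in each group. The model shares 1 estimate of spread per gene over the 4 groups. A wide spread at 6 hours therefore also widens the standard errors of comparisons without that group. Background was set on each array as the 95th percentile of 27 bacterial control probe sets, and it lay between 17.5 and 51.5. All 10 genes were above it on all 20 arrays but for Plxnb1 on 1 array at 6 hours. Signals of different probe sets are not compared, since their probes differ in affinity.

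The arrays differed in ways that move with the groups. The median signal over all probe sets was 177 ± 10.1 in non-irradiated cells, 149 ± 9.23 at 6 hours, 135 ± 5.18 at 24 hours and 94.5 ± 8.38 at day 14 (SD, n = 5 each), although all share 1 trimmed mean. The log2 difference between the 3′ and 5′ control probe sets of Gapdh was 1.33 in non-irradiated cells, 1.58 at 6 hours, 0.77 at 24 hours and 0.89 at day 14. The mean log2 signal of the hybridization controls was 12.77, 12.84, 12.17 and 12.14 in the same order. All arrays at 24 hours and day 14 (at most 12.38) lay below those at 6 hours and in non-irradiated cells (at least 12.66). The part of these array differences in the changes below was not tested. Correlations between arrays of a group had a median of 0.899 at 6 hours, against 0.939 to 0.959 in the other groups and 0.903 between groups. Centring each array on its median puts the median change of all genes against non-irradiated cells at 0.23 at 6 hours, 0.31 at 24 hours and 0.72 at day 14, where the deposited scale gives -0.022, -0.073 and -0.18. The genes called higher and lower then number 3531 and 1617 at 6 hours, 4950 and 1139 at 24 hours, and 8210 and 461 at day 14, where the deposited scale gives 2343 and 2640, 2861 and 2513, and 1723 and 2359. Quantile normalization gives 1784 and 1136 at day 14. The 3 falls at day 14 among the 10 genes are therefore given below also relative to the median change of all genes, a value that centring leaves as it is.

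The sort was checked with marker lists, whose summed signals moved with the groups too. Cdh5, the VE-cadherin gene, was higher at 6 hours (1.49 ± 0.12, adjusted p 6.26e-10) and at 24 hours (0.63 ± 0.12, adjusted p 0.000238), and lower at day 14 (-1.31 ± 0.12, adjusted p 2.66e-08). All 12 pan-endothelial genes were above background on every array. Their summed signal ran from 14911 to 16164 in non-irradiated cells, from 38697 to 46044 at 6 hours, from 21291 to 22726 at 24 hours and from 7817 to 8749 at day 14. Of the 12, 11 were called higher at 6 hours and 5 at 24 hours with 0 lower, and 9 were called lower at day 14, where centring gives 3 higher and 4 lower. The 8 sinusoidal endothelial genes had median sums of 13844 in non-irradiated cells, 35503 at 6 hours, 25073 at 24 hours and 13003 at day 14. Their day 14 and non-irradiated ranges overlapped. At 6 hours 7 were called higher and 1 lower, at 24 hours 6 and 0, and at day 14 1 and 0, where centring gives 5 and 0. Of all genes, 12.9% were called higher and 14.5% lower at 6 hours, 15.7% and 13.8% at 24 hours, and 9.47% and 13.0% at day 14. Centring called 8210 of all 18193 genes higher and 461 lower at day 14. Genes of other cells were present as well. All 8 pan-leukocyte and all 8 measured granulocyte genes were above background on every array, with medians of summed signal of 42020 and 122346 in non-irradiated cells, 38237 and 96875 at 6 hours, 38598 and 93261 at 24 hours and 31959 and 85336 at day 14. The 7 measured erythroid genes had a median sum of 35639 in non-irradiated cells, 4271 at 6 hours, 1522 at 24 hours and 44994 at day 14, with Rhag above background on none of the 24 hour arrays and Hba-a1 on none at day 14. The 8 measured megakaryocyte genes had medians of 11724, 33236, 16815 and 10124 in the same order of groups, and the 8 smooth muscle and pericyte genes had 2009, 4369, 12395 and 1200, with Cnn1 above background on none of the arrays outside 24 hours. In RNA from a sorted population, fewer cells of a type and less RNA per cell cannot be told apart, and the part of these shifts in the results below was not tested.

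**Figure D1:**
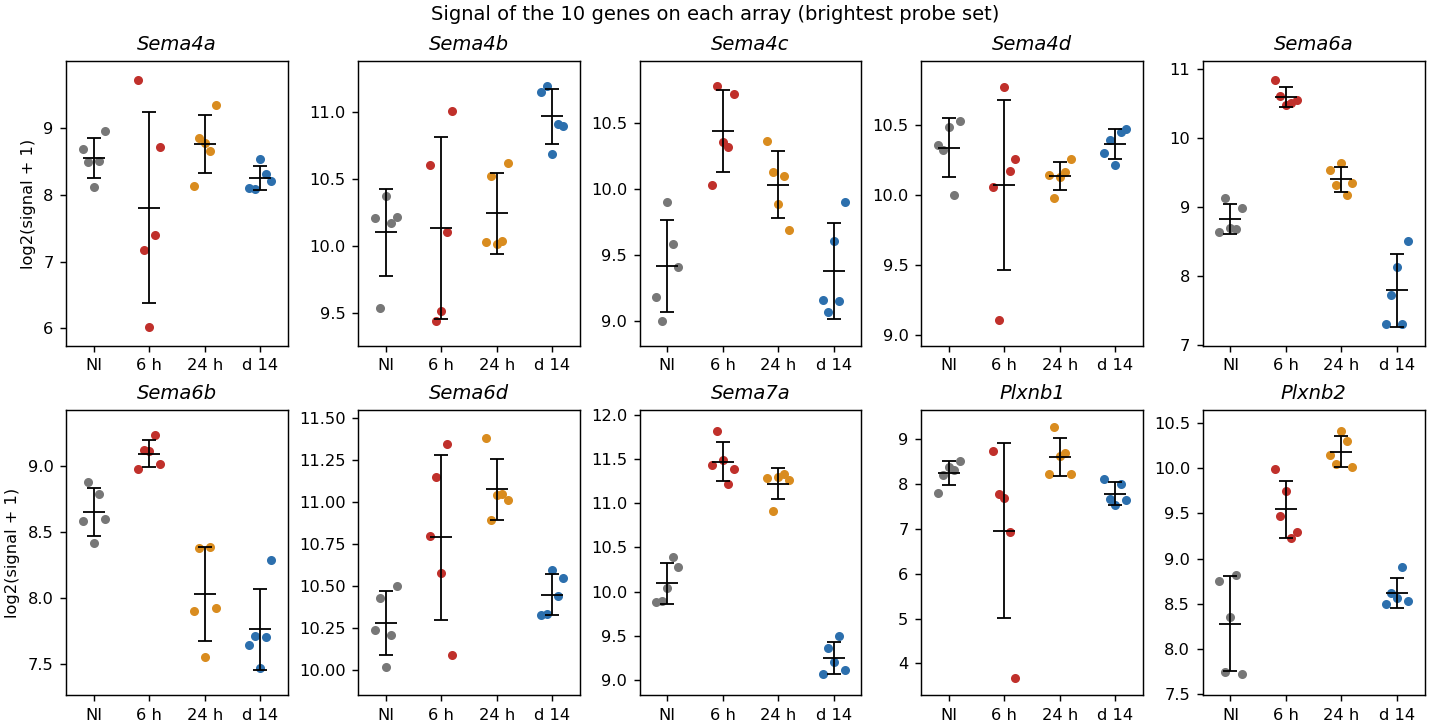
Log2(signal + 1) of the brightest probe set of each of the 10 genes (y axis, a range of its own in each panel) on the 5 arrays of each group (points; NI, non-irradiated; d 14, day 14), with the mean and SD as black bars. Sema6a, Sema7a and Plxnb2 separate the 6 hour arrays from the non-irradiated ones without overlap, while Sema4a and Plxnb1 spread widely at 6 hours.

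Among all 10 genes, 5 were called at 6 hours against non-irradiated cells, all higher, where 27.4% of all genes were called (12.9% higher and 14.5% lower). The arrays of the compared groups did not overlap for 5 of the 10 genes, against 15.6% of all genes. At 24 hours 6 were called, 5 higher and 1 lower, against 29.5% of all genes (15.7% higher and 13.8% lower), and 5 did not overlap, against 28.0%. At day 14 the count was 4, 1 higher and 3 lower, against 22.4% of all genes (9.47% higher and 13.0% lower), and 4 did not overlap, against 23.0%. In order of time, the median change of the 10 genes was 0.47, 0.47 and -0.17, against -0.022, -0.073 and -0.18 over all genes. With arrays centred on their medians the day 14 count was 5 higher and 0 lower, and with quantile normalization 2 higher and 2 lower. Of all 18193 genes, centring called 8210 higher and 461 lower at day 14, and quantile normalization 1784 and 1136. A test of any difference among the 4 groups (the F test of the same model) called 7 of the 10 genes and 55.1% of all genes, leaving out Plxnb1 (adjusted p 0.0622), Sema4a (0.22) and Sema4d (0.429).

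**Figure D2:**
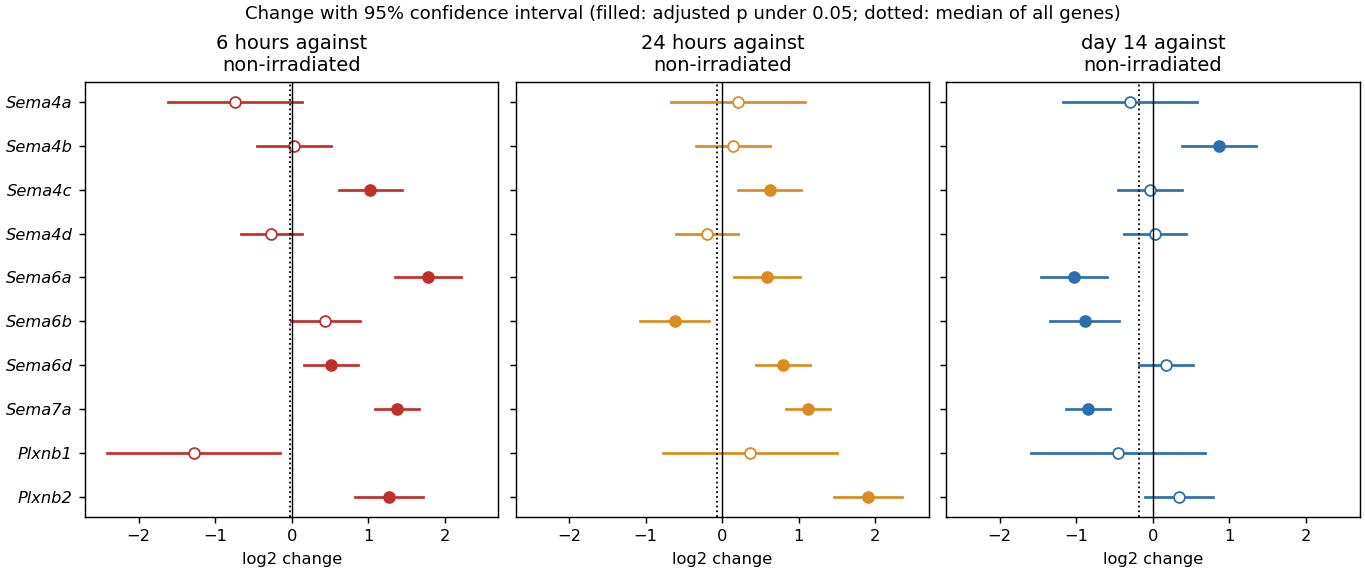
Log2 change of the 10 genes (rows) at each time against non-irradiated cells (panels), with 95% intervals from the limma model. Filled points have an adjusted p under 0.05 and the dotted line is the median change of all genes, which at day 14 lies at -0.18.

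Sema7a, the GPI-anchored ligand of plexin C1 and of alpha 1 beta 1 integrin, gave the highest F statistic of the 10 genes (107, adjusted p 1.57e-12). Its signal was 941, 949, 1056, 1347 and 1238 on the non-irradiated arrays. At 6 hours it was 2771, 3600.1, 2873, 2377 and 2687, and at 24 hours 2494, 1924, 2519.7, 2582 and 2456. At day 14 it was 537, 659, 590.4, 726 and 553. Every 6 and 24 hour array lay above every non-irradiated array, and every day 14 array lay below every array of the other 3 groups. The change against non-irradiated cells was 1.37 ± 0.14 at 6 hours (adjusted p 2.79e-08), 1.12 ± 0.14 at 24 hours (adjusted p 5.72e-07) and -0.84 ± 0.14 at day 14 (adjusted p 0.000104). The difference between 24 and 6 hours did not pass the test (-0.25 ± 0.14, 95% interval -0.54 to 0.04, adjusted p 0.21). Day 14 was lower than 24 hours (-1.97 ± 0.14, adjusted p 2.65e-11) and than 6 hours (-2.22 ± 0.14, adjusted p 1.92e-12). The second probe set of Sema7a gave the same directions, with changes of 0.81, 1.10 and -1.03 at 6 hours, 24 hours and day 14, each called. The day 14 change depended on the scale. It was -0.81 after quantile normalization (adjusted p 0.000206) and 0.054 with centred arrays (adjusted p 0.829), while relative to the median change of all genes it was -0.67 as deposited and -1.002 after quantile normalization. By its median, the summed signal of each of the pan-endothelial, sinusoidal endothelial and megakaryocyte lists given above was likewise highest at 6 hours and lowest at day 14. So was that of the 8 measured stromal and osteoblast genes, all above background on every array, with medians of 96849 in non-irradiated cells, 117488 at 6 hours, 90730.2 at 24 hours and 76586 at day 14. At day 14 the median change of these 8 genes was -0.17, against -0.18 over all genes. Of the 8, 0 were called higher and 4 lower at day 14, where centring gives 8 and 0. The megakaryocyte list gave 0 and 4, where centring gives 3 and 0. Of all genes, 9.47% were called higher and 13.0% lower at day 14, where centring gives 8210 and 461 of 18193. The part of these lists in the Sema7a values was not tested.

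Sema6a, a transmembrane ligand of plexin A2 and plexin A4 that is also known from endothelial cells, had the largest fold of the 10 genes at 6 hours. The non-irradiated arrays read 394, 556, 412, 409 and 507. The 6 hour arrays read 1828, 1553, 1427, 1448 and 1505, and the 24 hour arrays 737, 639, 795, 577 and 651. The day 14 arrays read 156, 211, 277, 156 and 361. The 4 groups did not overlap: 6 hours was highest, then 24 hours, then non-irradiated cells, and day 14 was lowest. The change was 1.77 ± 0.21 at 6 hours (adjusted p 2.8e-07), 0.58 ± 0.21 at 24 hours (adjusted p 0.0372) and -1.03 ± 0.21 at day 14 (adjusted p 0.000879). Leaving out any 1 of 7 arrays (24 hour replicates 1, 2, 3 and 5, non-irradiated replicates 1, 3 and 4) put the adjusted p of the 24 hour change between 0.0528 and 0.0934. Sema6a was lower at 24 hours than at 6 hours (-1.19 ± 0.21, adjusted p 0.000119) and lower at day 14 than at 24 hours (-1.61 ± 0.21, adjusted p 7.1e-07). Its probe sets 2 and 3, in order of brightness, gave 1.53 and 1.38 at 6 hours, both called, and 0.69 (adjusted p 0.0822) and 1.00 (adjusted p 0.0259) at 24 hours. At day 14 they gave -0.89 (adjusted p 0.0236) and -0.65 (adjusted p 0.15). The day 14 change was -0.59 after quantile normalization (adjusted p 0.041) and -0.13 with centred arrays (adjusted p 0.636), and relative to the median of all genes it was -0.85 as deposited. In the deposited scale the median pan-endothelial, sinusoidal endothelial and megakaryocyte sums had the same order of groups as Sema6a. The stromal sum was likewise highest at 6 hours and lowest at day 14 in that scale. The part of these lists in the Sema6a values was not tested.

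Sema6b, a transmembrane ligand of plexin A4 measured by 1 probe set, was the only one of the 10 genes called lower at 24 hours. Its signal was 383, 469, 340.3, 442 and 387 in non-irradiated cells and 503, 556, 554, 601 and 516 at 6 hours. At 24 hours it was 238, 332, 187, 334 and 242, and at day 14 199, 208, 176, 207 and 311. All 6 hour arrays lay above and all 24 hour and day 14 arrays lay below the non-irradiated ones. The 6 hour change of 0.44 ± 0.22 did not pass the test (adjusted p 0.145), but did after quantile normalization (0.57, adjusted p 0.0405) and with centred arrays (0.69, adjusted p 0.0115). At 24 hours the change was -0.62 ± 0.22 (adjusted p 0.0316), and the call was lost after quantile normalization (-0.46, adjusted p 0.0955), with centred arrays (-0.24, adjusted p 0.414) and on leaving out 24 hour replicate 1, 3 or 5 or non-irradiated replicate 2 or 4 (adjusted p 0.0639 to 0.103). The direct difference between 24 and 6 hours was called (-1.06 ± 0.22, adjusted p 0.000657). The day 14 change of -0.89 ± 0.22 (adjusted p 0.00439) became -0.41 after quantile normalization (adjusted p 0.184) and 0.0077 with centred arrays (adjusted p 0.98). Relative to the median of all genes it was -0.71 as deposited.

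Sema6d, a transmembrane ligand of plexin A1, was represented by 4 probe sets that did not run alike. The brightest read 1206, 1377, 1039, 1186 and 1450.4 in non-irradiated cells and 1776, 2264, 1527, 2593 and 1092 at 6 hours. It read 2657, 1900.5, 2102, 2116 and 2063 at 24 hours and 1285, 1289, 1549, 1389.9 and 1495 at day 14. Only the 24 hour arrays stood wholly apart from the non-irradiated ones, since 6 hour replicate 5 lay among them. The change was 0.51 ± 0.17 at 6 hours (adjusted p 0.0265), 0.79 ± 0.17 at 24 hours (adjusted p 0.000721) and 0.17 ± 0.17 at day 14 (adjusted p 0.508). The 6 hour call was lost without 6 hour replicate 2 or 4 or non-irradiated replicate 3 or 4 (adjusted p 0.0536 to 0.0937). Probe set 2, in order of brightness, gave 1.51 (adjusted p 3.25e-06), 1.07 (adjusted p 0.000245) and -0.14 (adjusted p 0.643) at the 3 times. Probe set 3 gave 0.38 (adjusted p 0.465), -1.004 (adjusted p 0.0248) and -2.01 (adjusted p 5.63e-05), and probe set 4 gave 0.32, -0.32 and -1.78 (adjusted p 0.000261 at day 14). The 2 brighter probe sets were thus called higher at 24 hours while probe set 3 was called lower, and probe sets 3 and 4 were called lower at day 14 while the 2 brighter ones were not called. Day 14 was lower than 24 hours by the brightest probe set (-0.62 ± 0.17, adjusted p 0.00505), a call lost with centred arrays (-0.11, adjusted p 0.695). The mean of the 4 gave 0.13 at 24 hours (adjusted p 0.533) and -0.94 at day 14 (adjusted p 3.95e-05). No single direction holds for Sema6d across its probe sets at 24 hours or day 14, and the transcripts each detects were not resolved here.

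**Figure D3:**
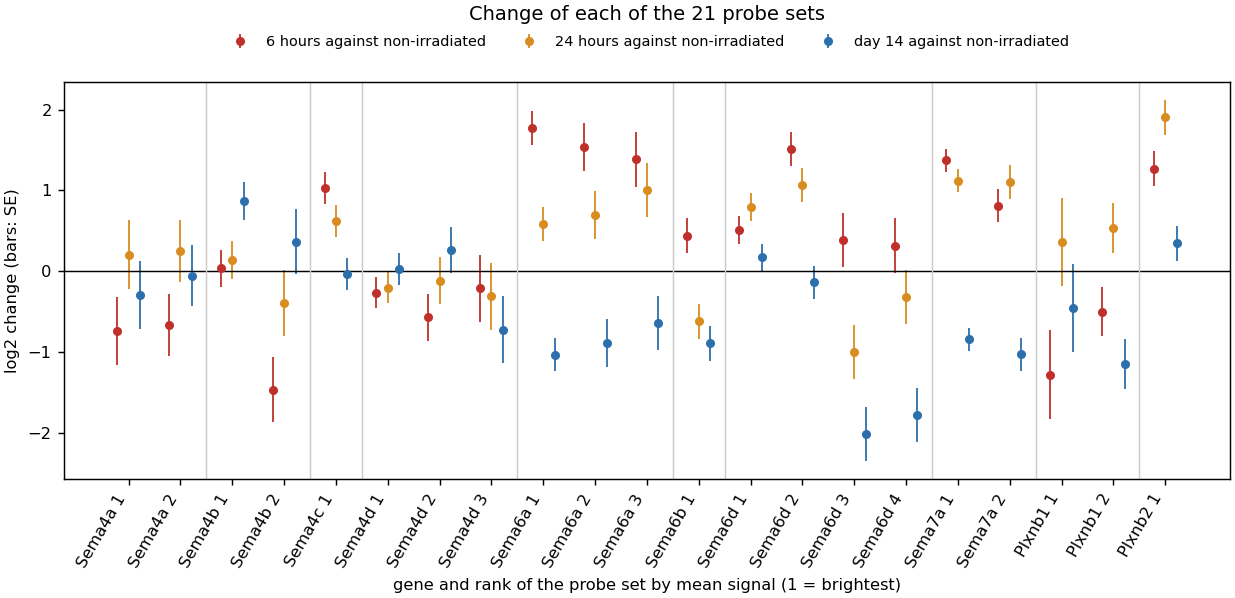
Log2 change against non-irradiated cells, with standard errors, of all 21 probe sets of the 10 genes (numbered from the brightest). The probe sets of Sema6a and Sema7a run alike, and those of Sema6d part at 24 hours (1.07 for probe set 2 and -1.004 for probe set 3) and at day 14.

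Of the 4 class 4 genes, Sema4c was called at 6 and 24 hours, and the brightest probe set of Sema4b at day 14. Sema4c, a ligand of plexin B2 measured by 1 probe set, had signals of 581, 511, 957, 765 and 678 in non-irradiated cells and 1044, 1758, 1308, 1278 and 1689.8 at 6 hours. It had 1313, 1120.2, 947, 1097 and 823 at 24 hours and 572, 535, 778, 567 and 957 at day 14. The 6 hour arrays all lay above the non-irradiated ones, the 24 hour arrays overlapped them in part, and the day 14 arrays covered the same range. The change was 1.03 ± 0.20 at 6 hours (adjusted p 0.000269), 0.62 ± 0.20 at 24 hours (adjusted p 0.0203) and -0.038 ± 0.20 at day 14 (adjusted p 0.915, 95% interval -0.45 to 0.37). The 24 hour call was lost without 24 hour replicate 1 or non-irradiated replicate 1 or 2 (adjusted p 0.0534 to 0.0696), and centred arrays gave a called day 14 change of 0.86 (adjusted p 0.000995). Day 14 was lower than 6 hours (-1.06 ± 0.20, adjusted p 0.000103) and than 24 hours (-0.66 ± 0.20, adjusted p 0.011), and both calls were lost with centred arrays (-0.41, adjusted p 0.105, and -0.14, adjusted p 0.663).

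Sema4b, a class 4 protein with a cytoplasmic tail that binds PDZ domains, was the only one of the 10 genes called higher at day 14 in the deposited scale. Its brightest probe set read 1183, 742, 1322, 1148 and 1190.0 in non-irradiated cells and 1555, 694, 730.1, 1099 and 2054 at 6 hours. It read 1041, 1469, 1030.5, 1047 and 1573 at 24 hours and 2269.6, 2338, 1647, 1919 and 1900.0 at day 14. The day 14 arrays lay above all non-irradiated and 24 hour arrays, and the 6 hour arrays overlapped every other group. The changes were 0.033 ± 0.23 at 6 hours (adjusted p 0.943), 0.14 ± 0.23 at 24 hours (adjusted p 0.707) and 0.87 ± 0.23 at day 14 (adjusted p 0.00934). Day 14 was also higher than 24 hours (0.72 ± 0.23, adjusted p 0.0163) and than 6 hours (0.83 ± 0.23, adjusted p 0.00532). The day 14 change was called after quantile normalization (0.74, adjusted p 0.0415) and with centred arrays (1.76). The second probe set gave -1.47 at 6 hours (adjusted p 0.00854), -0.39 at 24 hours (adjusted p 0.518) and 0.37 at day 14 (adjusted p 0.527), so the 2 probe sets differ at 6 hours and only the brighter was called at day 14. The mean of both probe sets was not called at day 14 (0.62, adjusted p 0.13).

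Sema4d (CD100), the class 4 ligand of plexin B1 and, on lymphocytes, of Cd72, was not called in any of the 6 comparisons by its brightest probe set in the deposited scale. It read 1315, 1279, 1438, 1024 and 1475 in non-irradiated cells, 1068, 550.2, 1753, 1156 and 1225 at 6 hours, 1133, 1008, 1120.0, 1150.1 and 1224 at 24 hours and 1262, 1349, 1187, 1398 and 1418 at day 14. The groups overlapped throughout. The changes were -0.26 ± 0.20 at 6 hours, -0.20 ± 0.20 at 24 hours and 0.026 ± 0.20 at day 14, with 95% intervals of -0.67 to 0.14, -0.61 to 0.20 and -0.38 to 0.43. With centred arrays the day 14 change was 0.93 (adjusted p 0.000408), above the shift of 0.72 that all genes then show, and day 14 was also called higher than 24 hours (0.75, adjusted p 0.00431) and than 6 hours (0.94, adjusted p 0.000354). Probe set 2 was called higher at day 14 than at 6 hours (0.83, adjusted p 0.0221). Against non-irradiated cells probe sets 2 and 3 gave -0.57 and -0.21 at 6 hours, -0.12 and -0.31 at 24 hours and 0.26 and -0.73 at day 14, none of them called.

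Sema4a, a class 4 protein known from immune cells as a partner of Timd2 and of plexins, read 410.2, 357, 276, 360.1 and 493 in non-irradiated cells. At 6 hours it read 836, 143, 64.1, 168 and 418, at 24 hours 279.8, 461, 437, 400.3 and 646, and at day 14 274, 271, 370.4, 316 and 293. The 6 hour arrays reached both above and below every other group. The changes were -0.74 ± 0.43 at 6 hours (adjusted p 0.22), 0.20 ± 0.43 at 24 hours (adjusted p 0.775) and -0.30 ± 0.43 at day 14 (adjusted p 0.651). Without 6 hour replicate 1, the array at 836, the 6 hour change was -1.22 (adjusted p 0.0114), the 24 hour value was higher than at 6 hours by 1.42 (adjusted p 0.00439) and that of day 14 by 0.92 (adjusted p 0.0384). The second probe set gave -0.67, 0.25 and -0.054, none of them called, while the mean of both was called at 6 hours (-0.71, adjusted p 0.0158).

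The 2 plexin B receptors behaved differently. Plxnb2, the receptor of Sema4c, Sema4d and also of angiogenin, read 429, 214, 327, 449 and 210.5 in non-irradiated cells and 1016, 709.6, 858, 601 and 628 at 6 hours. It read 1134, 1055, 1359, 1262 and 1032 at 24 hours and 359, 392, 377, 479.7 and 368 at day 14. Every 6 hour array lay above the non-irradiated ones and every 24 hour array above the 6 hour ones, while the day 14 arrays lay among and just above the non-irradiated ones. The change was 1.27 ± 0.22 at 6 hours (adjusted p 5.59e-05), 1.91 ± 0.22 at 24 hours (adjusted p 1.28e-07) and 0.34 ± 0.22 at day 14 (adjusted p 0.267). The day 14 change was called after quantile normalization (0.75, adjusted p 0.0395) and with centred arrays (1.24, adjusted p 7.72e-05). Plxnb2 was higher at 24 than at 6 hours (0.64 ± 0.22, adjusted p 0.0341), a call that was lost after quantile normalization (0.63, adjusted p 0.0651) and without 6 hour replicate 2, 4 or 5 or 24 hour replicate 1, 3 or 4 (adjusted p 0.0526 to 0.0872). It was lower at day 14 than at 24 hours (-1.56 ± 0.22, adjusted p 2.04e-06) and than at 6 hours (-0.93 ± 0.22, adjusted p 0.00112), the second of which was lost with centred arrays (-0.28, adjusted p 0.364). The summed signal of the smooth muscle and pericyte genes was highest at 24 hours as well, from 11670 to 12951 against 1744 to 2120 in non-irradiated cells. By its median that sum was lowest at day 14, while mean Plxnb2 was lowest in non-irradiated cells. The median change of the 8 genes was 1.49 at 6 hours (5 called higher and 1 lower) and 1.22 at 24 hours (4 and 0). Of all genes, 12.9% were called higher and 14.5% lower at 6 hours, and 15.7% and 13.8% at 24 hours. The part of this list in the Plxnb2 values was not tested.

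Plxnb1, the receptor of Sema4d that acts together with Met and Erbb2, read 222, 292, 333, 319 and 363 in non-irradiated cells. At 6 hours it read 426, 218, 205, 121 and 11.8, the last of these not above background. At 24 hours it read 298, 614, 395, 409 and 299, and at day 14 276, 201, 183, 254 and 198. The 6 hour arrays spread most widely, and all groups overlapped the non-irradiated ones. The changes were -1.28 ± 0.55 at 6 hours (adjusted p 0.0883), 0.36 ± 0.55 at 24 hours (adjusted p 0.679) and -0.46 ± 0.55 at day 14 (adjusted p 0.585). The pooled standard error holds a log2 SD of 1.94 at 6 hours, against 0.25 to 0.43 in the other groups. Day 14 arrays all lay below the 24 hour ones, but this difference was not called (-0.82 ± 0.55, adjusted p 0.264, and 0.00343 to 0.732 over all settings). Without 6 hour replicate 1 the 6 hour change was -1.73 (adjusted p 0.0154). The difference between 24 and 6 hours was called (1.64 ± 0.55, adjusted p 0.0304) and fell to 0.82 without 6 hour replicate 5, the array at 11.8. That call was also lost without 24 hour replicate 2, 3 or 4, and the adjusted p without 1 of these 4 arrays was 0.0512 to 0.0784. The second probe set gave -0.50 (adjusted p 0.271), 0.54 (adjusted p 0.21) and -1.15 (adjusted p 0.00607), so that only this dimmer probe set was called at day 14. The mean of both was called at 6 hours (-0.89, adjusted p 0.0492).

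Direct comparisons between the times called 4 of the 10 genes at 24 against 6 hours (2 higher and 2 lower), where 23.8% of all genes were called (13.7% higher and 10.1% lower). At day 14 against 24 hours 6 were called (1 higher and 5 lower), where 36.9% of all genes were called (15.2% higher and 21.7% lower). Day 14 against 6 hours also gave 6 (1 higher and 5 lower), where 44.9% of all genes were called (19.8% higher and 25.0% lower). Arrays did not overlap for 3 of the 10 genes at 24 against 6 hours (14.6% of all genes), for 6 at day 14 against 24 hours (36.4%) and for 5 at day 14 against 6 hours (28.2%). The median change of the 10 genes was 0.085, -0.64 and -0.63 in these comparisons, against -0.049, -0.27 and -0.27 over all genes. With centred arrays, day 14 gave 2 higher and 3 lower against 24 hours and 4 higher and 3 lower against 6 hours. Of all 18193 genes, 4971 were then called higher and 1687 lower against 24 hours, and 6650 and 1756 against 6 hours. The 6 comparisons share groups, so their counts are not independent of each other.

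**Figure D4:**
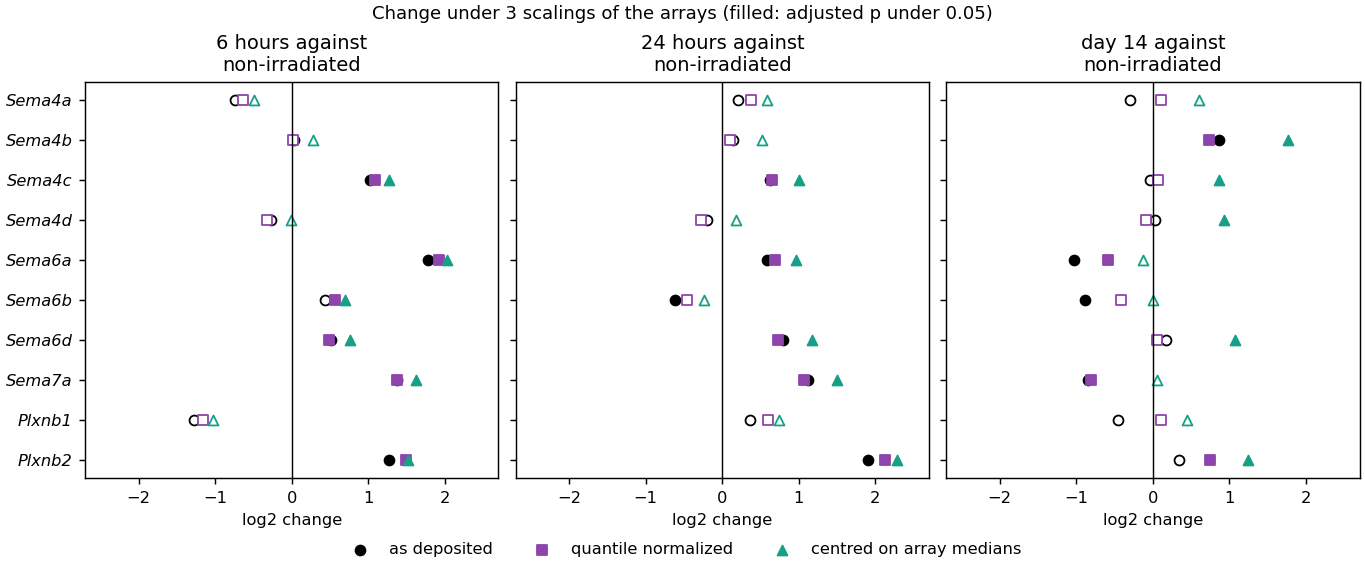
Log2 change of the 10 genes against non-irradiated cells in the deposited scale, after quantile normalization and with arrays centred on their medians (filled: adjusted p under 0.05). The 3 scalings lie close together at 6 hours and part at day 14, where Sema7a is at -0.84, -0.81 and 0.054.

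The other 6 genes of these classes had dim probe sets in several groups. At 6 hours 0 were called higher and 2 lower, at 24 hours 1 higher and 0 lower, and at day 14 none was called, where 27.4%, 29.5% and 22.4% of all genes were called. Quantile normalization gave 2 and centred arrays 3 higher at 24 hours, where these scalings called 3485 and 4950 of all 18193 genes higher. The medians were -0.22, 0.45 and -0.15, against -0.022, -0.073 and -0.18 over all genes. Sema4f, a class 4 gene, was at or under background on 4 of the 5 arrays at 6 hours, where the highest read 64.0, and ran from 60.2 to 310.0 in non-irradiated cells; the fitted change of -3.75 ± 0.55 (adjusted p 7.75e-06) carries no exact size. Sema5a, a class 5 protein with thrombospondin repeats, ran from 55.7 to 688 at 6 hours, against 692 to 955 in non-irradiated cells (-2.13 ± 0.46, adjusted p 0.000889). At 24 hours it ran from 1927 to 2212 (1.30 ± 0.46, adjusted p 0.0359), a call that was lost on leaving out any of the 10 arrays (adjusted p 0.0517 to 0.0749). Its log2 SD was 1.68 at 6 hours, 0.081 at 24 hours and 0.21 in non-irradiated cells, and the standard error pools these. Over all settings the adjusted p at 24 hours ran from 2.77e-08 to 0.125, and the 24 hour arrays all lay above the non-irradiated ones. The mean of its probe sets was called at neither time (-0.53, adjusted p 0.256, and 0.68, adjusted p 0.125). Sema5b, with the smallest p of the list at day 14, ran from 34.1 to 47.0, against 55.4 to 140.7 in non-irradiated cells, and did not pass (-0.91 ± 0.36, adjusted p 0.0653, and 0.13 after quantile normalization).

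Of 16 listed receptors and co-receptors of semaphorins, 6 were called higher and 1 lower at 6 hours, 8 higher and 1 lower at 24 hours, and 0 higher and 6 lower at day 14. Of all genes, 12.9% were called higher and 14.5% lower at 6 hours, 15.7% and 13.8% at 24 hours, and 9.47% and 13.0% at day 14. The medians of the 16 were 0.34, 0.74 and -0.46, against -0.022, -0.073 and -0.18 over all genes. Centred arrays gave 8 higher and 1 lower, 8 higher and 1 lower, and 7 higher and 0 lower. In that scale 3531 of all 18193 genes were called higher and 1617 lower at 6 hours. The numbers were 4950 and 1139 at 24 hours, and 8210 and 461 at day 14. Plxna1, the receptor of Sema6d, was higher at 6 hours (1.16 ± 0.22, adjusted p 0.000159) and at 24 hours (1.21 ± 0.22, adjusted p 8.32e-05), but the 6 hour call was lost with the mean of its probe sets (0.41, adjusted p 0.491). Plxnd1, an endothelial plexin, was higher at 24 hours (1.35 ± 0.19, adjusted p 3.42e-06), with signals of 1327 to 1665, against 547 to 643 in non-irradiated cells. Nrp2, a co-receptor shared with VEGF, was higher at 6 hours (0.92 ± 0.11, adjusted p 6.8e-07). Plxnc1, the plexin receptor of Sema7a, was lower at 6 hours (-1.15 ± 0.27, adjusted p 0.00211), with arrays that overlapped the non-irradiated ones. Plxnc1 was not called at 24 hours (-0.30, adjusted p 0.456). The integrin chains that Sema7a also binds went the other way at 6 hours. Itga1 was higher at 6 hours (0.82, adjusted p 4.8e-05) and 24 hours (1.17, adjusted p 2.43e-07). So was Itgb1 (0.31, adjusted p 0.0137, and 0.84, adjusted p 8.32e-08). At day 14 Itga1 was called lower (-0.47, adjusted p 0.0166) and Itgb1 was not called (0.21, adjusted p 0.109). With centred arrays both were called higher then (0.43, adjusted p 0.0235, and 1.11, adjusted p 6.07e-08). Cd72, the lymphocyte receptor of Sema4d, was lower at 24 hours (-1.69 ± 0.32, adjusted p 0.000163), with 49.0 to 124 against 218 to 308 in non-irradiated cells.

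At day 14 the receptor of Sema6a, Plxna2, was lower as Sema6a was (-1.19 ± 0.12, adjusted p 1.41e-07), with 875 to 1246 against 2240.1 to 2718 in non-irradiated cells, and with centred arrays the change was -0.29 (adjusted p 0.0712). Plxna2 was higher at 6 hours (0.49, adjusted p 0.00344) and at 24 hours (0.99, adjusted p 5.01e-07). Sema6a gave 1.77 and 0.58 at these times, so the 2 genes did not move alike between them. Erbb2, the receptor tyrosine kinase that pairs with plexin B, was lower (-1.44 ± 0.41, adjusted p 0.0124), a call lost after quantile normalization (-0.49, adjusted p 0.438) and with centred arrays (-0.54, adjusted p 0.282). Plxna4, the other plexin A of Sema6a, was above background on 2 of the 5 day 14 arrays (-1.88 ± 0.67, adjusted p 0.0439). That call was lost in 7 of the 10 fits without 1 array (adjusted p 0.0504 to 0.135) and in both other scalings.

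**Figure D5:**
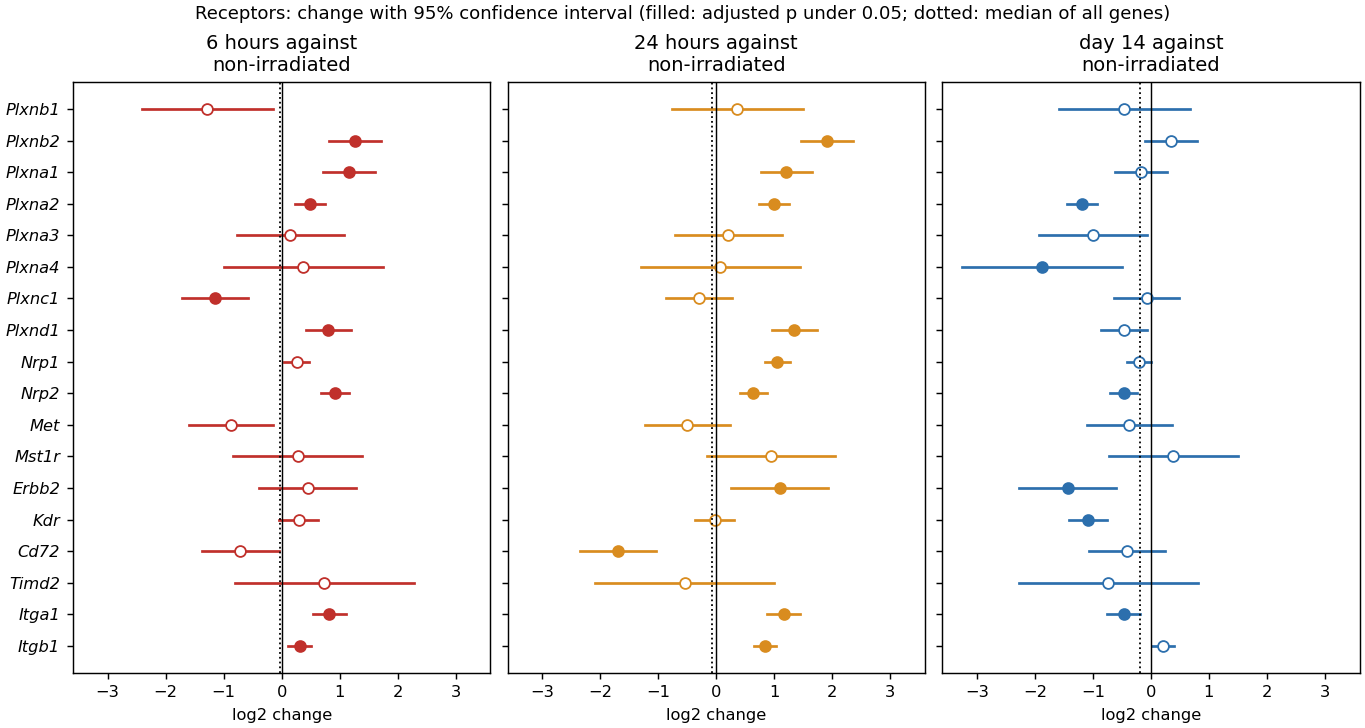
Log2 change with 95% intervals of Plxnb1, Plxnb2 and the 16 receptors and co-receptors (rows) at each time against non-irradiated cells (panels); filled points have an adjusted p under 0.05. Of the 16, 8 were called higher at 24 hours and 6 were called lower at day 14.

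A further list held genes that carry the plexin signal inside the cell. Of 22 measured of 24 listed, 11 were called higher and 1 lower at 6 hours, 15 higher and 1 lower at 24 hours, and 2 higher and 3 lower at day 14, with medians of 0.53, 0.59 and -0.033, beside the all-gene shares and medians given for the receptors. Centred arrays gave 17, 19 and 15 higher and 0 lower at the 3 times, beside the all-gene numbers with centred arrays given for the receptors. Rnd3, a small GTPase that binds plexins, was higher at 24 hours (1.61 ± 0.11, adjusted p 1.85e-11), with 3385 to 3913 against 1023 to 1304 in non-irradiated cells. Of the Ras family proteins listed, Rras2 (2.19 ± 0.35, adjusted p 2.13e-05) and Rras (1.38 ± 0.13, adjusted p 5.09e-09) were higher at 24 hours as well. Rap1a, of the same family, was the 1 gene of the list called lower at 24 hours (-0.37, adjusted p 0.00658). Centred arrays gave 0.016 for it (adjusted p 0.943). At 6 hours Rnd1, of the same family as Rnd3, was higher (2.99 ± 0.60, adjusted p 0.00038), although its 6 hour arrays ran from 42.5 to 876 and 3 of 5 non-irradiated arrays were above background. Mical2, an enzyme that takes actin filaments apart, was higher at 6 hours (1.40 ± 0.32, adjusted p 0.00129), but the mean of its probe sets was not (0.41, adjusted p 0.391).

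Rnd2 was lower at 6 hours (-1.33 ± 0.43, adjusted p 0.021), a call lost with centred arrays (-1.08, adjusted p 0.0522) and without 6 hour replicate 3 or non-irradiated replicate 2 or 5 (adjusted p 0.0592 to 0.0826). At day 14 Mical1, an enzyme related to Mical2 (-1.01 ± 0.21, adjusted p 0.00127), Evl, an actin regulator (-0.62 ± 0.22, adjusted p 0.0466), and Arhgef11, an exchange factor that plexin B recruits (-0.61 ± 0.17, adjusted p 0.0119), were lower. With centred arrays none of these 3 was called, and the values were -0.11 for Mical1, 0.28 for Evl and 0.29 for Arhgef11. Mical1 was called neither with the mean of its probe sets (-0.63, adjusted p 0.0595) nor without probe sets open to cross-hybridization (-0.25, adjusted p 0.649). Evl was not called in 8 of the 10 fits without 1 array (adjusted p 0.067 to 0.133).

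Among the 3 proteases known to cut semaphorins from the membrane, Mmp14, which releases Sema4d, was higher at 6 hours (1.02 ± 0.13, adjusted p 7.99e-07) and 24 hours (1.53 ± 0.13, adjusted p 6.73e-10). Its signals were 992 to 1389 in non-irradiated cells, 1837 to 2892 at 6 hours and 3208 to 3921 at 24 hours. At day 14 it ran from 1397 to 1804 (0.38 ± 0.13, adjusted p 0.0371), and this call was lost after quantile normalization (0.25, adjusted p 0.196) and in 6 of the 10 fits without 1 array. Adam17 was higher at 24 hours (0.56 ± 0.18, adjusted p 0.0217), a call lost after quantile normalization (0.46, adjusted p 0.0566) and without 24 hour replicate 2 or non-irradiated replicate 2 or 3 (adjusted p 0.0535 to 0.0584). Adam10 was lower at 24 hours (-0.47 ± 0.088, adjusted p 0.00014) and higher at day 14 (0.29 ± 0.088, adjusted p 0.0181). The first of these was lost with centred arrays (-0.088, adjusted p 0.622), and the second after quantile normalization (0.23, adjusted p 0.0593) and without non-irradiated replicate 1 (0.26, adjusted p 0.0523).

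The genes whose pattern lay closest to a member were found by the root mean square difference of the 4 group means of log2(signal + 1), each less its own mean, over 16311 genes. For Sema7a these were Stox2, at 0.037, and Pik3r3, at 0.038. For Sema6a they were Dtna, at 0.050, and Pde2a, at 0.060, and for Plxnb2 they were Armcx2, at 0.032, and Msrb3, at 0.054. With 4 points per gene this is a description of likeness alone.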

How the data were processed

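Per the labels' protocols, RNA of VE-cadherin+ marrow cells came from Qiagen's RNeasy micro kit, was amplified by NuGEN's Ovation V2 system and carried a biotin label; it was hybridised to 20 single-colour Affymetrix arrays of 45101 probe sets. The deposited values are linear intensity per probe set, already summarised and scaled by the authors; Affymetrix Expression Console and Transcriptome Analysis Console are named in the submitters' processing notes, and the summary method is not given in the sources used here. On every array the mean without the top and bottom 2% is 500. No further scaling was applied for the reported values, and no dim probe set was removed.

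Signals were put on a log2(signal + 1) scale. Genes came from the platform annotation: 34945 probe sets had 1 symbol, 932 several and 9160 none, and 64 were controls. The brightest single-symbol probe set stood for a gene. limma 3.58.1 in R 4.3.3 (lmFit, and eBayes with an intensity trend) fitted 4 group means over all arrays, two-sided, with Benjamini-Hochberg adjustment over 18193 genes. The number of arrays limits the precision. Scripts were tested on simulated data, and 0 pairs of arrays were identical. The 10 genes and the partner lists were chosen with earlier results of these data known, and no p was adjusted over them alone. From each partner list, up to 3 called genes with the largest change per time were named, or that with the smallest p where none was called. Rap1a, Itga1 and Itgb1 were named outside this rule. Promoters came from the RefSeq table on GRCm38.p6, and positions of chromosome 18 are not shown. Alternatives were other scalings, a pseudocount of 16, the mean of probe sets, filters on dim or cross-hybridising probe sets, other variance models, stricter thresholds, a replicate block and leaving out each array. Figures were drawn with matplotlib 3.10.9.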

Additional observations from a re-analysis of the deposited data

Results flagged for a closer look

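Across 40 groups of 5 arrays (10 genes in 4 groups), 2 held an array far from the other 4, and chance gives about 1 in 20. Sema4b was lowest on non-irradiated replicate 2, where the gap to the nearest array was 0.756 of the range of the group. Sema7a was lowest on 24 hour replicate 2, with a gap of 0.83 of the range. The limit for 5 values is 0.71.

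Signal differed between times in 16 of 30 direct contrasts of the 10 genes, each tested in the limma model with Benjamini-Hochberg adjustment over all genes. The part of the array and marker shifts given above in these differences was not tested. Of all genes, 23.8% were called at 24 against 6 hours, 36.9% at day 14 against 24 hours and 44.9% at day 14 against 6 hours. At 24 against 6 hours the called members were Sema6a (-1.19), Sema6b (-1.06), Plxnb1 (1.64) and Plxnb2 (0.64). At day 14 against 24 hours they were Sema4b (0.72), Sema4c (-0.66), Sema6a (-1.61), Sema6d (-0.62), Sema7a (-1.97) and Plxnb2 (-1.56). At day 14 against 6 hours they were Sema4b (0.83), Sema4c (-1.06), Sema6a (-2.81), Sema6b (-1.33), Sema7a (-2.22) and Plxnb2 (-0.93). With centred arrays the calls of Sema4c in both day 14 contrasts, of Sema6d (-0.11) and of Plxnb2 against 6 hours (-0.28) were lost. The arrays of the times compared did not overlap for Sema6a, Sema6b and Plxnb2 at 24 against 6 hours.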

How the results depend on the processing

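Over 660 values of the 10 genes under other settings, 605 kept direction and side of the threshold, 17 lost the call, 18 gained one and 20 turned sign; leaving out each array gave 552, 29, 6 and 13 of 600. For the partner genes named by the rule given above, these were 299, 32, 3 and 3 of 337, and 272, 38, 0 and 0 of 310. Counts of called members moved by over 1.5 times in 5 settings: at an adjusted p under 0.01, 3 at 24 hours against non-irradiated cells and 2 at 24 against 6 hours; at a change of at least 2-fold, 2 at 24 hours and 1 at day 14 against non-irradiated cells and 3 at day 14 against 24 hours. Leaving out 1 array gave counts of 4 to 7 at 6 hours, 3 to 6 at 24 hours and 4 to 4 at day 14 against non-irradiated cells, 2 to 5 at 24 against 6 hours, 6 to 6 at day 14 against 24 hours, 6 to 7 at day 14 against 6 hours and 7 to 9 for the F test. The cause of these moves was not tested beyond the settings themselves.

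Signs turned as follows. With centred arrays they turned against non-irradiated cells for Sema4d at 24 hours (0.18) and, at day 14, for Sema4a (0.60), Sema4c (0.86), Sema6b (0.0077), Sema7a (0.054), Plxnb1 (0.44), Evl (0.28) and Arhgef11 (0.29). They also turned for Sema4a (0.015) and Sema6b (0.25) at day 14 against 24 hours and for Sema6d at day 14 against 6 hours (0.31). With quantile normalization they turned at day 14 against non-irradiated cells for Sema4a (0.11), Sema4c (0.065), Sema4d (-0.088), Plxnb1 (0.0999) and Sema5b (0.13), and for Sema6b against 24 hours (0.051). Averaging the probe sets of a gene, they turned for Sema4b at 6 hours (-0.72) and 24 hours (-0.12), for Sema4d (-0.15) and Sema6d (-0.94) at day 14, and at 24 against 6 hours for Sema6d (-0.55) and Sema7a (0.020). Of these 23, only Sema4c with centred arrays and Sema6d with the mean of probe sets at day 14 and at 24 against 6 hours had an adjusted p under 0.05. Leaving out 1 array turned the sign of 6 changes, none of them called in the reported fit: Sema4b at 6 hours (-0.18 to 0.21), Sema4c (-0.17 to 0.084) and Sema4d (-0.059 to 0.073) at day 14, Sema4b (-0.064 to 0.33) and Sema4d (-0.18 to 0.24) at 24 against 6 hours, and Sema4a at day 14 against 6 hours (-0.00036 to 0.92).

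Arrays with the same replicate number deviated together little (r from -0.067 to 0.049 over the 6 comparisons, 0 of 5 pairs over 0.1 in each). The best match had the same number in 3 of 5 cases at 24 against 6 hours and in 2 of 5 at day 14 against non-irradiated cells. In each of the other comparisons it did so in 0 or 1 of 5. Whether same-numbered arrays were collected or processed together cannot be told from these values. With the replicate number as a block, 5, 6 and 4 members were called at 6 hours, 24 hours and day 14 against non-irradiated cells, 4 at 24 against 6 hours, 6 at day 14 against 24 hours, 6 at day 14 against 6 hours and 7 by the F test, as without it; Evl (adjusted p 0.0561) and Mmp14 (0.0511) at day 14 were no longer called. Signals near background limit Plxnb1 at 6 hours, Sema4f at 6 hours and Plxna4 at day 14.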
